A study of Mus musculus with 14 samples.

Results

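The D cyclins and the kinases, inhibitors and substrate they act on were examined in tumours from mice labelled HIF-2α deficient and from control mice. HIF-2α, the protein product of Epas1, is stabilised when oxygen is low and activates genes together with ARNT. The set holds 10 genes chosen by name, with earlier results of these data known. They are the cyclins Ccnd1, Ccnd2 and Ccnd3, the kinases Cdk4 and Cdk6, the inhibitors Cdkn1a, Cdkn1b, Cdkn2a and Cdkn2c, and Rb1. Every probeset whose single platform gene symbol is one of these was taken, which gave 22 of the 22690 probesets on the array. Of these, 20 probesets of 8 genes lay above background often enough to be tested, and the single probesets of Cdk6 and Cdkn2a did not.

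Total RNA was measured in 7 tumours from mice labelled Hif2alpha deficient (also called Hif 2alpha knockdown) and in 7 tumours from control mice, on 1 Affymetrix array each. Mice of both groups had the same mixed 129 SvJ/C57Bl6 background. The sources used here give neither the organ, the age, the Epas1 allele nor the cells that lost it. The study is known for work on lung tumours, though the labels name no organ. The surfactant protein gene Sftpc read 13.89 ± 0.15 in deficient and 13.85 ± 0.06 in control tumours on the log2 scale (SD, n = 7 each). The club cell gene Scgb1a1 read 13.84 ± 0.26 and 13.78 ± 0.05 in the same order, so both probesets were far above background in both groups. Of the 10 club and secretory markers described below, Scgb1a1 was the only 1 whose mean was not lower in deficient tumours.

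Epas1 itself was read by 1 probeset, at 5.65 ± 0.51 in deficient and 5.84 ± 0.69 in control tumours, a difference of -0.19 (SE 0.30, limma adjusted p = 0.807). The part of the gene that was lost is not given, so this value does not check the labels. Array medians ran from 5.13 to 5.20 in deficient and from 5.19 to 5.29 in control arrays, and arrays correlated at 0.946 to 0.990 within the deficient group and at 0.973 to 0.996 within controls. The array descriptions carry numbers whose leading digits fall into 4 sets among deficient arrays and 2 among controls. The sources used here do not say what they mark. The design text counts 7 mice per group. If the leading digits nevertheless mark a shared animal, the independent samples are fewer than 14, and p-values below measure only the spread between these arrays. With the group fitted, arrays sharing leading digits had an estimated correlation of 0.349 over all tested probesets. The main limma fit and the exact permutation treat the arrays as independent. Every deficient array also has a lower running number than every control array, so that number and the group cannot be told apart.

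In G1, growth signals raise the D cyclins, which bind and activate CDK4 and CDK6. These kinases phosphorylate the retinoblastoma protein, encoded by Rb1, which then releases E2F factors that switch on S-phase genes. The INK4 proteins, here those of Cdkn2a and Cdkn2c, bind CDK4 and CDK6 directly. The CIP/KIP proteins p21 (Cdkn1a) and p27 (Cdkn1b) block cyclin-CDK2 complexes and also bind cyclin D complexes. Ccnd1 is a common downstream gene of growth factor signalling, and in human renal cancer cells it is a known HIF-2 target.

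Upstream sequence was available for 7 of the 10 genes, as RefSeq starts on GRCm38.p6, and was searched for the core letters of a HIF site, ACGTG or GCGTG, on both strands. Ccnd1, Ccnd2 and Rb1 had no entry. In the 250 bases upstream of a start, 8 of the 11 starts of these 7 genes held the letters at least once, against 38.6% of all 32851 starts in the table. Both windows below are on the plus strand, at chr10:127063285-127063534 for Cdk4 and at chr6:134920151-134920400 for Cdkn1b. Cdk4 is shown because its window held the hexamer CACGTG 4 times, as few others do (0.0213% of windows held it that often, 6.02% held it at all), and Cdkn1b because 1 of its probesets differed between the groups at an unadjusted p under 0.05. Capitals mark the core letters, which overlap on both strands in CACGTG.
Cdk4: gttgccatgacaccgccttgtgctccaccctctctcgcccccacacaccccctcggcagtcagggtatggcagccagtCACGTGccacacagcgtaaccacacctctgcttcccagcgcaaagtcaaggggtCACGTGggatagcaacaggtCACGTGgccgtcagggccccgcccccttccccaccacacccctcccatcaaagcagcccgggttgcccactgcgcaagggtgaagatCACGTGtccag
Cdkn1b: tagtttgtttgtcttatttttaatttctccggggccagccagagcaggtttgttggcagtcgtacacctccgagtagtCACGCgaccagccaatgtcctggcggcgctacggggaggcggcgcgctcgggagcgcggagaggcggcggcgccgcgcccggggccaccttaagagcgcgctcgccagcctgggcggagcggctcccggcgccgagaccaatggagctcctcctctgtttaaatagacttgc
A match is only a match of letters and does not show which factor, if any, binds. CACGTG is also called an E-box, so its count is not a count of HIF sites. As the values below show, no Cdk4 probeset differed beyond the spread between arrays. The probesets of Cdkn1b gave differences of opposite sign, 1 of them within its spread.

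The comparison of deficient with control tumours gave no call among these genes. At a limma adjusted p under 0.05, 0 of the 20 tested probesets passed, against 0.0394% of all 12701 probesets tested (5 calls). At an unadjusted p under 0.05 there were 4 higher and 0 lower in deficient tumours, which is 20.0% of the 20 against 14.7% of all tested probesets, with 8.09% higher and 6.57% lower. The 4 are not independent, since 3 of them read Ccnd1. The median difference was -0.08 over the 20 probesets and 0.02 over all tested, with 10 members higher and 10 lower (52.6% of all tested probesets had a positive difference). In no probeset did the groups separate without overlap, as 0.496% of all tested probesets did. In bulk tumour RNA, fewer cells of a type and less RNA per cell cannot be told apart.

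**Figure D1:**
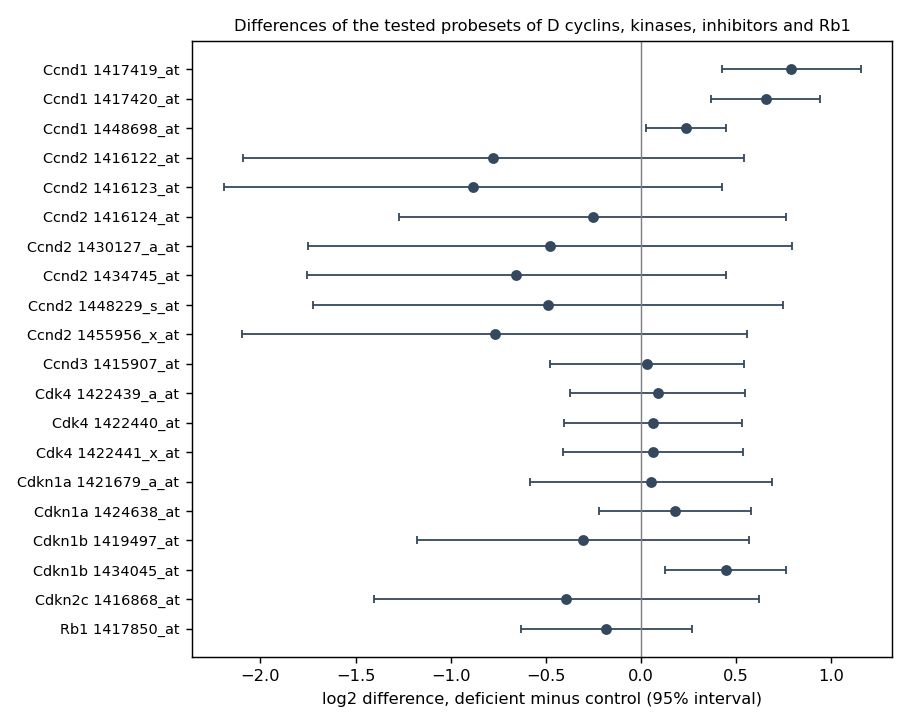
Log2 difference of each tested probeset, deficient minus control, with its 95% interval from the limma fit (7 arrays a group). The 3 Ccnd1 probesets and Cdkn1b probeset 1434045_at have intervals above 0, the 7 Ccnd2 probesets have the widest intervals, and none passed after adjustment over all probesets.

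Ccnd1, the cyclin D1 gene, had a higher mean in deficient tumours in all 3 of its probesets. Probeset 1417420_at read 8.77, 9.18 and 9.49 (lowest, median and highest) in deficient arrays, against 8.23, 8.49 and 8.87 in control arrays. The groups overlapped at 1 array on each side: 6 of 7 deficient arrays lay above the highest control, and deficient 1 lay under control 1. The means were 9.15 ± 0.27 in deficient and 8.50 ± 0.21 in control tumours (SD, n = 7 each). The difference was 0.65 (SE 0.13), or 1.57-fold, with a 95% interval of 1.29 to 1.92 (limma p = 0.000219, adjusted p = 0.111, two-sided exact permutation p = 0.00117).

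Probeset 1417419_at read 6.39, 6.85 and 7.20 in deficient arrays, against 5.66, 5.85 and 6.65 in control arrays. Here 5 of 7 deficient arrays lay above the highest control. The difference was 0.79 (SE 0.17), or 1.73-fold (95% interval 1.34 to 2.23, limma p = 0.000362, adjusted p = 0.116, exact permutation p = 0.00233). The control values were uneven: control 1 at 6.65 and control 4 at 6.37, which share a leading number, stood above the other controls at 5.66 to 5.98.

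Probeset 1448698_at showed a smaller gap. It read 12.24, 12.36 and 12.55 in deficient arrays and 11.87, 12.11 and 12.42 in control arrays. Here 3 of 7 deficient arrays lay above the highest control. Of the controls, only control 1 (12.42) and control 3 (12.35) reached into the deficient range. The difference was 0.24 (SE 0.10), or 1.18-fold (95% interval 1.02 to 1.37, limma p = 0.0299, adjusted p = 0.289, exact permutation p = 0.0111). All 7 deficient arrays lay above the control mean in each of the 3 probesets, whose values correlated at 0.679 to 0.950 over the 14 arrays. These correlations describe probesets that share the arrays and the gene.

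**Figure D2:**
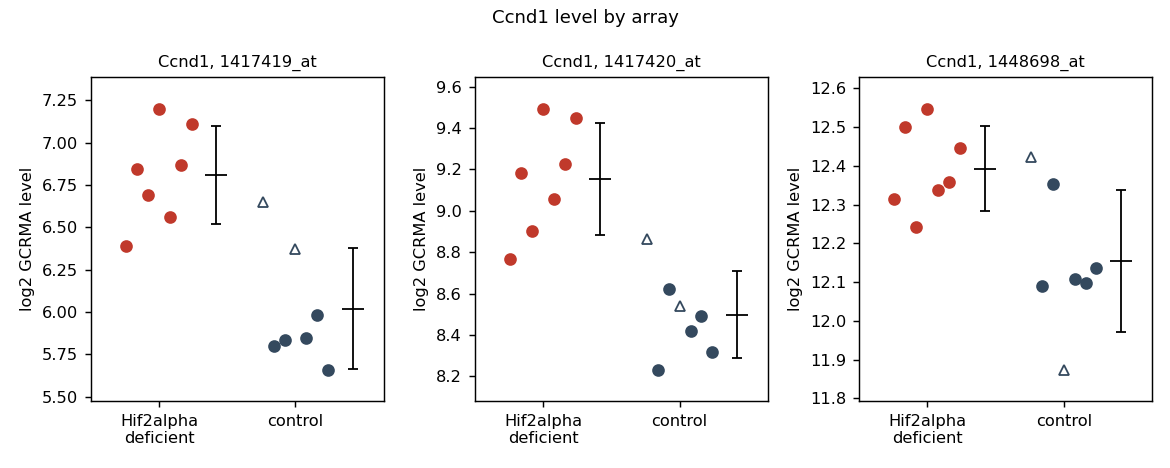
Log2 level of each Ccnd1 probeset by array, 7 deficient and 7 control, with the mean ± SD of each group beside the points. Open triangles are control 1 and control 4, which share a leading number; in 1417420_at 6 of 7 deficient arrays lie above every control, and each panel has its own axis.

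Whether Ccnd1 passed depended on 1 array and on the fit. Without control 4, probeset 1417419_at passed with a difference of 0.85 (limma adjusted p = 0.0486), and 1417420_at read 0.66 (adjusted p = 0.0510). Over all 12701 tested probesets that fit called 85, against 5 with every array. The unadjusted limma p of 1417419_at was 0.000277 there, against 0.000362 with every array. With arrays weighted by their fit to the group, all 3 Ccnd1 probesets passed, with differences of 1.01, 0.83 and 0.29 in the order 1417419_at, 1417420_at and 1448698_at (adjusted p = 0.00538, 0.00538 and 0.0312). That fit called 15.0% of all tested probesets. With a random effect for the leading number, the differences were 0.70, 0.62 and 0.24 in the same order, and each adjusted p was 0.989 (unadjusted p = 0.00282, 0.00297 and 0.109).

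The genes whose levels followed Ccnd1 probeset 1448698_at most closely over the 14 arrays were Mydgf (r = 0.855), Anxa3 (0.832), Zdhhc3 (0.823), Cnih1 (0.820) and Limd1 (0.813). Mydgf encodes a secreted growth factor and Anxa3 a calcium-dependent phospholipid-binding annexin. Each had a higher mean in deficient tumours, by 0.28 to 0.68, so part of each correlation is the group difference they share. These are the highest values among all tested genes and are given as a description.

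Ccnd2, the cyclin D2 gene, varied more between deficient tumours than between controls, and its group means did not differ beyond that spread. The probeset with the highest mean, 1434745_at, read 7.27, 8.82 and 11.27 in deficient arrays, against 8.60, 10.14 and 10.58 in control arrays. Deficient 7 was above every control, and deficient 2 and 3 were below every control. The means were 9.19 ± 1.30 in deficient and 9.85 ± 0.72 in control tumours (SD, n = 7 each), a difference of -0.66 (SE 0.51, limma adjusted p = 0.594). All 7 Ccnd2 probesets gave a lower mean in deficient tumours, from -0.88 to -0.25, with adjusted p-values of 0.532 to 0.843. All 7 were highest in deficient 7 and lowest in deficient 3, and they correlated with each other at 0.895 to 0.985 over the 14 arrays. Without deficient 3 and 6 the difference of probeset 1434745_at was -0.18, and that of 1416124_at turned to 0.15. Without deficient 7 the difference of 1416123_at was -1.39 (limma adjusted p = 0.157) and that of 1416124_at -0.61 (adjusted p = 0.415), the widest and the narrowest of the 7.

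Ccnd3, the cyclin D3 gene, read 7.05, 7.74 and 8.38 in deficient arrays and 7.29, 7.80 and 8.27 in control arrays. Deficient 2, 4 and 7 lay above every control and deficient 3 below every control. The difference was 0.03 (SE 0.24), with a 95% interval of -0.48 to 0.54, so a change of up to about 1.45-fold upward is within the interval. Its sign turned with the processing, to -0.28 without the 3 arrays whose descriptions carry a suffix.

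Of the 2 kinases, Cdk4 was read by 3 probesets and Cdk6 was at the floor. Cdk4 probeset 1422441_x_at, whose suffix marks probes that may also match other transcripts, read 9.16, 10.12 and 10.87 in deficient arrays, against 9.72, 9.87 and 10.50 in control arrays. Deficient 3 was the highest array of all and deficient 1 and 5 lay below every control. The difference was 0.06 (SE 0.22, 95% interval -0.41 to 0.54, adjusted p = 0.926). The other probesets gave 0.06 (1422440_at) and 0.09 (1422439_a_at), and all 3 correlated at 0.954 to 0.987 over the arrays. Without deficient 3 and 6 the differences turned to -0.13 in 1422441_x_at, -0.11 in 1422440_at and -0.11 in 1422439_a_at. The Cdk6 probeset read 2.15 on every array of both groups, the background that GCRMA sets, so its level is only a bound and no difference was computed.

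The CIP/KIP inhibitors gave 1 probeset with an unadjusted p under 0.05. For Cdkn1b, the p27 gene, probeset 1434045_at read 9.92, 10.43 and 10.58 in deficient arrays, against 9.44, 9.92 and 10.23 in control arrays. Deficient 3 and 6 lay within the control range and the other deficient arrays above it. The means were 10.33 ± 0.26 in deficient and 9.89 ± 0.28 in control tumours (SD, n = 7 each), a difference of 0.44 (SE 0.15), or 1.36-fold (95% interval 1.09 to 1.70, limma p = 0.00956, adjusted p = 0.206, exact permutation p = 0.0117). The other probeset, 1419497_at, read 6.85, 7.88 and 9.69 in deficient arrays and 7.49, 8.15 and 9.41 in control arrays, a difference of -0.30 (SE 0.41, adjusted p = 0.766). The 95% interval of 1419497_at, -1.175 to 0.5675 on the log2 scale, held both 0 and the 0.44 of 1434045_at. The 2 probesets correlated at only 0.05 over the 14 arrays, so the higher Cdkn1b mean rests on 1 probeset. Array weights brought 1434045_at past the threshold (0.54, adjusted p = 0.0165) and turned 1419497_at to 0.10. With a random effect for the leading number, 1434045_at differed by 0.42 (limma adjusted p = 0.989) and its unadjusted p was no longer under 0.05.

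Cdkn1a, the p21 gene and a classic p53 target, did not differ beyond the spread. Probeset 1424638_at read 10.34, 10.93 and 11.16 in deficient arrays, against 9.96, 10.61 and 11.22 in control arrays, a difference of 0.18 (SE 0.19, adjusted p = 0.690). No deficient array left the control range. Probeset 1421679_a_at differed by 0.05 (SE 0.30, adjusted p = 0.954), with deficient arrays at 6.99, 8.14 and 8.62 and control arrays at 7.28, 7.64 and 8.34.

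Among the INK4 genes, the Cdkn2a locus encodes both p16 and the p53 activator ARF, and its 1 probeset lay at the floor on most arrays. It exceeded 4 on 1 deficient array (deficient 6, 4.79) and on 1 control array (control 3, 5.24). The other deficient arrays read 2.15 to 3.53 and the other control arrays 2.15 to 2.16, so it was not tested. Cdkn2c, the p18 gene, read 4.95, 6.77 and 8.16 in deficient arrays, against 6.22, 6.98 and 7.99 in control arrays. Deficient 3 and 6, at 5.08 and 4.95, were the lowest of all arrays, and deficient 2, at 6.20, lay just under the lowest control. The difference was -0.39 (SE 0.47, adjusted p = 0.737), and it turned to 0.24 without deficient 3 and 6.

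Rb1, which encodes the substrate of the D cyclin kinases, read 7.31, 8.07 and 8.80 in deficient arrays, against 7.94, 8.23 and 8.66 in control arrays. The same arrays, deficient 3 and 6, were lowest at 7.31 and 7.55, and deficient 5 was highest. The difference was -0.18 (SE 0.21, adjusted p = 0.724), and it turned to 0.08 without deficient 3 and 6. Over the 14 arrays Rb1 correlated with Ccnd2 at 0.789, with Cdkn2c at 0.808 and with Cdk4 at -0.810, each by its probeset with the highest mean. These correlations are a description, and deficient 3 and 6 are the lowest arrays for both Rb1 and Cdkn2c.

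**Figure D3:**
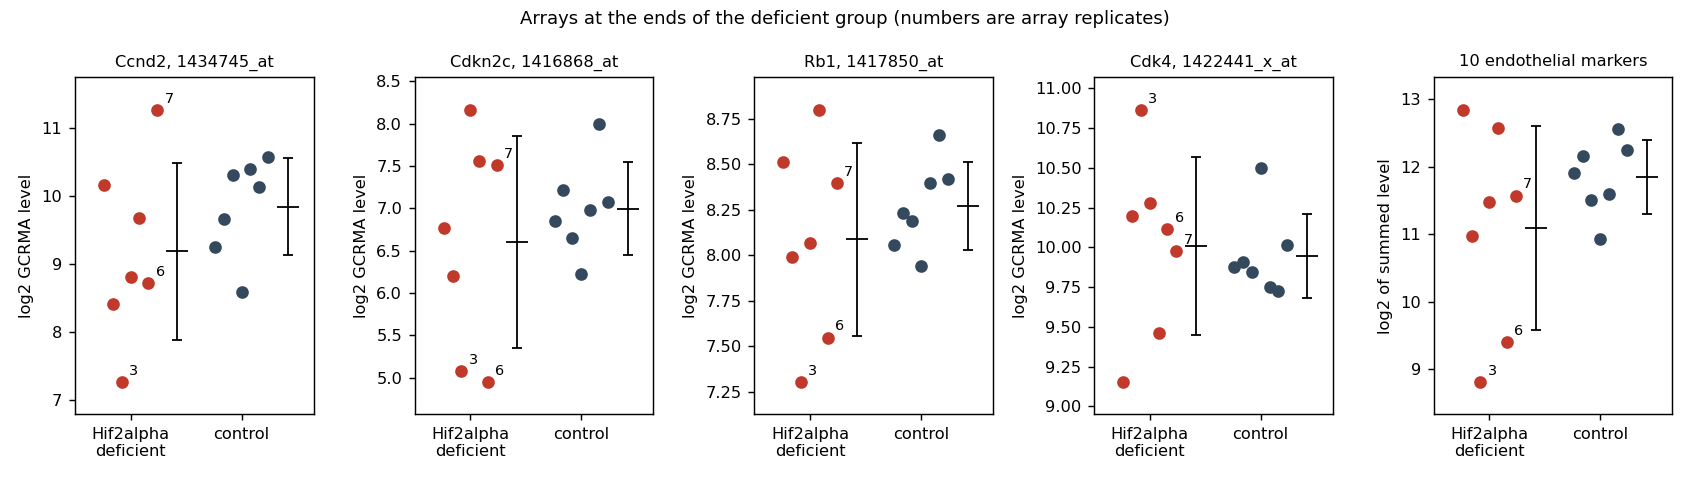
Log2 level by array for Ccnd2, Cdkn2c, Rb1 and Cdk4 (1 probeset each) and the log2 summed level of 10 endothelial markers, 7 deficient and 7 control arrays, with mean ± SD; numbers mark deficient arrays 3, 6 and 7. Deficient 3 and 6 are the lowest arrays for Cdkn2c, Rb1 and the endothelial markers, and each panel has its own axis.

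Deficient 3 and 6, which share a leading number, also held the lowest levels of vessel genes. The log2 summed level of 10 endothelial markers was 8.82 in deficient 3 and 9.40 in deficient 6, against 10.97 to 12.84 in the other deficient arrays and 10.93 to 12.56 in control arrays. Of the 10 markers 0 were higher and 10 lower in deficient tumours, 1 of them at an unadjusted p under 0.05. Their median difference was -0.75, and 0 were under 4 on every array. Over all 7771 genes, each read by its tested probeset with the highest mean, 50.4% had a positive difference. Of these genes 7.73% were lower at an unadjusted p under 0.05. Deficient 3 and 6 were also the lowest of the 14 arrays for alveolar type I and ciliated cell markers. The log2 summed level of alveolar type I markers was 13.62 in deficient 3 and 13.76 in deficient 6, against 14.35 to 14.53 in the other deficient arrays and 14.16 to 14.52 in control arrays. For ciliated markers it was 6.71 and 6.39 in these arrays, against 7.96 to 10.36 in the other deficient arrays and 9.43 to 12.56 in control arrays. The part of vessel, alveolar type I or ciliated cell content in the values of Ccnd2, Cdkn2c and Rb1 was not tested.

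Most airway cell markers had lower means in the deficient group, in which Ccnd1 had the higher means. Of 10 club and secretory markers 9 were lower, 7 of them at an unadjusted p under 0.05, and Scgb1a1 was not lower (0.06). Over all 7771 genes the share lower at that p was 7.73%. The median difference of the 10 club and secretory markers was -2.23. Their log2 summed level was 13.86 to 15.74 in deficient and 15.13 to 16.25 in control arrays. Apart from Scgb1a1, differences ran from -0.56 (Cyp2f2) to -6.51 (Ltf), and Ltf and Gabrp (-2.83) had the smallest p. The list was chosen with earlier results of these data known, so its median and counts are a description only. All 4 tested ciliated markers were lower, each at an unadjusted p under 0.05, with a median difference of -2.51, and the summed level of the 5 matched was 6.39 to 10.36 in deficient and 9.43 to 12.56 in control arrays. The mean log2 level of the 4 tested ciliated markers ran from 3.47 to 7.57 in deficient and from 5.84 to 9.86 in control arrays. Some deficient arrays thus lay near the floor. Such markers can pass the filter through the control arrays alone, which favours lower means in the deficient group. Of these 10 club and 5 ciliated markers 0 were under 4 on every array. Their part in the Ccnd1 and Cdkn1b values was not tested. Alveolar type II markers had a median difference of 0.03 over 9 genes, with a summed level of 16.24 to 16.62 in deficient and 16.34 to 16.54 in control arrays. The median difference was -0.39 over 8 alveolar type I markers, -0.37 over 9 fibroblast and smooth muscle markers, -0.45 over 10 macrophage markers and -0.47 over 6 lymphocyte markers. None of these marker genes passed over all probesets (smallest limma adjusted p = 0.0787).

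Genes around the D cyclins were taken from 4 lists, each gene read by its tested probeset with the highest mean. Across all 7771 genes read this way, 50.4% had a positive difference, 7.45% were higher and 7.73% lower at an unadjusted p under 0.05, and 0.0386% were called. The lists gave 0 calls, and members are named by rank of p and by level, so those named are the extremes of their lists.

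Of 22 tested genes of the G1 to S step, 16 were higher and 6 lower in deficient tumours, 2 and 0 of them at an unadjusted p under 0.05, with a median of 0.11. Those 2 were Ccnh, the cyclin H gene, and the kinase gene Cdk7. Ccnh read 9.60 ± 0.16 in deficient and 9.33 ± 0.18 in control tumours, a difference of 0.26 (SE 0.11, limma adjusted p = 0.277). Cdk7 differed by 0.35 (SE 0.15, limma adjusted p = 0.299). The other Ccnh probesets gave 0.35 and 0.43. Fbxo4, an F-box gene linked to cyclin D1 turnover, differed by -0.38 (SE 0.21, adjusted p = 0.415) and Skp1, of the same ligase family, by 0.17 (SE 0.11), with -0.11 in its other probeset.

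Of 17 tested E2F targets of S phase, 13 were higher and 4 lower, 4 and 0 of them at an unadjusted p under 0.05, with a median of 0.19. The median was 0.36 without deficient 6, and 0.098 without the 3 arrays with a suffix. The helicase genes Mcm2 and Mcm4 differed by 0.59 (SE 0.24, adjusted p = 0.289) and 0.54 (SE 0.23, adjusted p = 0.309), and the thymidine kinase gene Tk1 by 0.58 (SE 0.26, adjusted p = 0.322). Other probesets gave 0.40 for Mcm2 and 0.03 for Mcm4. Pcna, the replication clamp gene with the highest level of the list, read 10.97 ± 0.46 in deficient and 11.03 ± 0.11 in control tumours, a difference of -0.06. The log2 summed level of the 22 matched targets was 12.42 to 13.23 in deficient and 12.57 to 13.01 in control arrays, so the groups overlapped. For 7 mitosis genes tested, 4 were higher and 3 lower, 0 at an unadjusted p under 0.05, and the median was 0.14.

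Of 17 tested p53 targets other than Cdkn1a, 12 were higher and 5 lower, 2 and 1 of them at an unadjusted p under 0.05, with a median of 0.04. That median depended on single arrays: it was -0.026 without deficient 7, 0.0092 without control 5, and between 0.068 and 0.12 without deficient 1, 3 or 6 or control 3, 4 or 6, each alone. The death receptor gene Fas read 8.07 ± 0.35 in deficient and 8.77 ± 0.32 in control tumours, a difference of -0.71 (SE 0.18, adjusted p = 0.132). Cyclin G1 (Ccng1) differed by 0.33 (SE 0.13, adjusted p = 0.257), with 0.46 and 0.40 in its other probesets, and the zinc finger gene Zmat3 by 0.41 (SE 0.18, adjusted p = 0.325).

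Of 15 tested genes upstream of the D cyclins, 11 were higher and 4 lower, 2 and 1 of them at an unadjusted p under 0.05, with a median of 0.11. The list mixes mitogen and RAS-ERK factors with forkhead genes. Its members need not act in the same direction, so these counts do not measure growth signalling. The median was 0.063 without deficient 4 and 0.064 without deficient 5. The immediate early gene Egr1 differed by 0.55 (SE 0.20, adjusted p = 0.228) and Map2k1, the MEK1 gene, by 0.37 (SE 0.16, adjusted p = 0.308). Foxo3, a forkhead factor that can activate Cdkn1b, differed by -0.32 (SE 0.14, adjusted p = 0.296), and by -0.48 in its other probeset (adjusted p = 0.162). Ctnnb1, the beta-catenin gene and the one with the highest level, read 13.03 ± 0.13 in deficient and 12.89 ± 0.05 in control tumours, a difference of 0.15 (SE 0.08), while its other probesets gave -0.16 and -0.03.

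**Figure D4:**
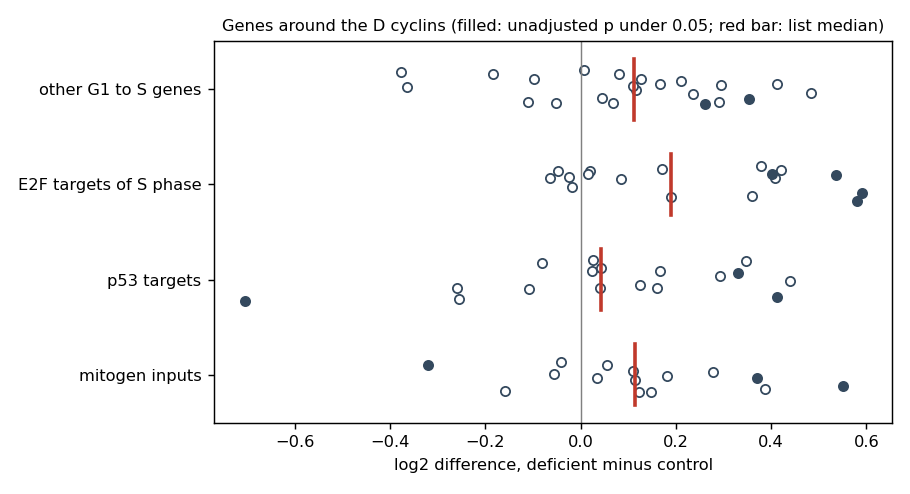
Log2 difference, deficient minus control, of each tested gene in 4 lists around the D cyclins; filled points have an unadjusted p under 0.05 and red bars mark the list medians of 0.11, 0.19, 0.04 and 0.11 from top to bottom. None of the points passed after adjustment over all probesets.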

How the data were processed

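The authors deposited log2 levels per probeset. Per the submitters' processing notes these come from GCRMA (version not stated), which removes a sequence-based background, and 43.9% of values lay under 4, near that floor. Arrays have no read depth, and their number limits precision (median SE of a difference 0.18). Probesets other than the 64 Affymetrix controls were tested if above 4 on at least 7 of the 14 arrays, with limma 3.58.1 in R 4.3.3 (lmFit, eBayes, 1 group term, two-sided). P-values were Benjamini-Hochberg adjusted over all 12701 tested, threshold 0.05. Differences are deficient minus control. Exact permutation used all 3432 splits (smallest p 0.000583). The main fit was tested on simulated data with independent arrays, which does not cover arrays that share a leading number. The 4 pathway and 9 marker lists are described by counts and medians. Named were all members, in each pathway list the 3 genes of smallest p and the 1 of highest level, and the 5 genes most like Ccnd1. Members and lists were chosen with earlier results of these data known. Replicate numbers did not pair arrays, with correlations of deviations from -0.23 to 0.22 over 7 numbers. Alternatives covered the filter, normalisation, variance model, array weights, leading numbers, replicate numbers and arrays left out. Gene names came from the platform annotation, which can be old. Across the lists, 1 symbol was matched by synonym.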

Additional observations from a re-analysis of the deposited data

Results flagged for a closer look

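In 4 of the 42 groups of 7 arrays examined, over member probesets with a value above 4, a single array stood apart from its group, where chance flags about 1 in 20. All 3 Cdk4 probesets were set apart by control 4, at 10.36 in 1422439_a_at (the next control read 9.93), 8.25 in 1422440_at (next 7.56) and 10.50 in 1422441_x_at (next 10.01). These 3 probesets read the same gene on the same array. Cdkn2a was set apart by control 3, at 5.24 where the other controls read 2.15 to 2.16. Those other controls lie at the floor, so a single array above it is flagged at almost any height. The rate of 1 in 20 does not apply there.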

How the results depend on the processing

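Over all probesets, 5 were called; the count was 0 with no filter, with a random effect for the leading number or without the 3 arrays with a suffix, 9 with a variance trend, 32 without deficient 3 and 6, and 1900 with array weights, which ranged from 0.277 to 4.15. It was 0 to 85 with single arrays left out. Among the 20 member probesets 0 were called, 4 with array weights, and 0 to 1 with single arrays left out. Array weights brought Ccnd1 to 1.01, 0.83 and 0.29 and Cdkn1b 1434045_at to 0.54, past the threshold. Without control 4 alone, Ccnd1 1417419_at passed (0.85), within 0.72 to 0.89 over single arrays left out. That fit held 85 calls over all probesets. The replicate block, with numbers that do not pair arrays, gave 2 calls and none among members; 0 of 7 deficient arrays correlated best with its own number. Signs turned without deficient 3 and 6 for Ccnd2 1416124_at (0.15), Cdk4 (-0.11, -0.11 and -0.13), Cdkn2c (0.24) and Rb1 (0.082). They turned without the arrays with a suffix for Ccnd3 (-0.28), with that random effect for Cdkn1a 1421679_a_at (-0.031) and with array weights for Cdkn1b 1419497_at (0.10). Over single arrays left out the range was -0.61 to 0.067 for Ccnd2 1416124_at, -0.066 to 0.16 for Ccnd3, -0.059 to 0.22, -0.081 to 0.20 and -0.080 to 0.21 for the Cdk4 probesets, and -0.077 to 0.19 for Cdkn1a 1421679_a_at. The cause of these changes was not tested. Centring arrays on their medians moved the median of all probesets to 0.10, and Ccnd1 read 0.87, 0.73 and 0.32 (limma adjusted p = 0.0775, 0.0713 and 0.135). With single arrays left out the list medians ran from 0.081 to 0.16 (G1 to S step), 0.14 to 0.36 (E2F targets), -0.026 to 0.12 (p53 targets) and 0.063 to 0.14 (genes upstream of the D cyclins).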
